A study of Homo sapiens with 9 samples.

Results

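RAB proteins are small GTPases that mark the membranes of the cell and direct vesicles between them. The RAB genes were taken as all protein-coding genes whose symbol is RAB followed by a number, with an optional letter and a further digit, which gave 63 genes among the 58735 gene identifiers of the count table. RAB6B, which the study named among the genes that were higher with PT2385, is a member of this set. It is described here beside its paralogs. Of the 63 genes, 50 passed the filter on low counts and were tested in each comparison, and 13 were not tested.

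RNA was sequenced from 786-0 cells, a human clear cell renal carcinoma line that lacks functional VHL and carries an inactivating change in HIF1α, so that HIF2α (encoded by EPAS1) is constitutively present. All groups were grown for 48 h at 21% oxygen in low-glucose medium with serum. The 3 groups were untreated WT cells (control), WT cells given 10 µM PT2385 for 48 h, and HIF2α KO cells of the same line, with 3 libraries in each. PT2385 is a small molecule that binds HIF2α and blocks its pairing with ARNT, so the protein is inhibited while its gene is intact. How the KO was made and whether it is 1 clone are not given in the sources used here, so the loss of HIF2α and other properties of the line cannot be told apart. Nothing in the labels says that the replicates were separate cultures, so p-values measure the spread between these libraries, which may be technical.

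A RAB protein is active when it carries GTP and inactive when it carries GDP. Guanine nucleotide exchange factors (GEFs) load GTP, GTPase-activating proteins (GAPs) end the active state, and effectors such as motors, tethers and adaptors bind the active form. Newly made RAB proteins are presented by escort proteins to an enzyme that attaches lipid to cysteines at the end of the chain, and GDI proteins later carry the inactive form through the cytosol. In kidney epithelium these proteins serve the uptake and recycling of surface receptors, the delivery of proteins to the apical membrane and the building of the cilium.

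The lipid-carrying cysteines can be read at the ends of the coding sequences. Among the 63 genes, 50 have 2 cysteine codons within the last 5 codons before the stop, 11 have 1 and 2 (RAB6C and RAB6D) have none. The last 33 coding bases of 8 members on which the results below turn are shown here from GENCODE transcripts on GRCh38, 5′ to 3′, with cysteine codons in capitals and the stop codon at the end.
RAB6A: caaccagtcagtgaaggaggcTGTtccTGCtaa
RAB6B: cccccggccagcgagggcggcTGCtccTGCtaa
RAB42: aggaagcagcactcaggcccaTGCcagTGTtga
RAB3D: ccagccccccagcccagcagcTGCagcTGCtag
RAB7B: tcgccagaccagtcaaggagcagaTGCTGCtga
RAB27A: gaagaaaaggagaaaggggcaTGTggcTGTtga
RAB8B: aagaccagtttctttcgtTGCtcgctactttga
RAB40C: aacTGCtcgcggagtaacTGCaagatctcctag
RAB8B is among the 11 genes with 1 such codon and RAB40C is another, whereas the other members shown here end in a pair.

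RAB6A and RAB6B, whose proteins act in traffic at the Golgi, are paralogs, and both coding sequences hold 627 bases. They differ at 134 positions (78.6% identical), of which 105 are at the last base of a codon, and the longest stretch without a difference is 20 bases. The last 300 coding bases are printed to show how a read can be told apart between them, with the 72 bases that differ in capitals. RAB6A lies on the minus strand at chr11:73675638-73761137 and RAB6B on the minus strand at chr3:133824235-133895882 (GRCh38).
RAB6A: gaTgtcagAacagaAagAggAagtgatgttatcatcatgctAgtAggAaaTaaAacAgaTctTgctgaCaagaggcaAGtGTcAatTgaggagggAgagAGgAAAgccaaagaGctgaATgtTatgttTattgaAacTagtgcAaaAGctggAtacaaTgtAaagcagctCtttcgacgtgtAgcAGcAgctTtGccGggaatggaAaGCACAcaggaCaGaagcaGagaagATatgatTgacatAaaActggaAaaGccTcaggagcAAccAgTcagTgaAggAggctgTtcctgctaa
RAB6B: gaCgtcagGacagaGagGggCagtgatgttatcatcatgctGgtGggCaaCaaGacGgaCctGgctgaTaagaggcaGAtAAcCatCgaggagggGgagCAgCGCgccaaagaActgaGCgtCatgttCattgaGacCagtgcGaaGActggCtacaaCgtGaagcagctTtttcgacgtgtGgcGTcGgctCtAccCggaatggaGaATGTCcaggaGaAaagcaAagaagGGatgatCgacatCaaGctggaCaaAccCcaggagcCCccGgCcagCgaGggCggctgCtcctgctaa
No run of 50 bases of the RAB6B transcript (0 of 5547) occurs in a transcript of another gene, so a read of that length from RAB6B matches no other annotated transcript exactly. Of the RAB6A runs, 21.2% occur elsewhere, mostly in RAB6C, a gene with at most 2 reads in any library.

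Each library held between 11881000 and 14730081 reads assigned to genes. EPAS1, the targeted gene, was at 270, 264 and 233 CPM (reads scaled to a common library size) in control libraries, 248, 248 and 219 with PT2385 and 20.2, 24.9 and 21.1 in KO libraries. It fell by 3.52 on the log2 scale in KO cells (SE 0.0963, adjusted p = 2.15e-09, edgeR) and differed by -0.11 with PT2385 (SE 0.0746, adjusted p = 0.459). All 6 renal epithelial markers checked had at least 100 reads in every library, while of 5 proximal tubule markers LRP2 had none, AQP1 at most 2, SLC34A1 2 to 8 and CUBN 12 to 32. The other one, GGT1, had 1325 to 2032 reads and rose with PT2385 by 0.25 (adjusted p = 0.0414), and its part in the results was not tested. The 3 leukocyte and 3 endothelial markers stayed at or below 2 reads in every library.

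The RAB transcripts together made up 2636 ± 66.9 CPM in control cells (SD, n = 3), 2611 ± 39.9 with PT2385 and 2689 ± 60.7 in KO cells. Levels of single genes are compared per length, as RPKM, which is CPM divided by the exonic length in kilobases. This length is the union of all annotated exons and can exceed that of a transcript. For RAB7A it is 7194 bases against 2185 in the canonical GENCODE transcript, and for RAB1B 1950 against 1901. The order of genes given here holds for this length only and could differ with transcript lengths. In control cells the highest were RAB1B, a regulator of transport from the endoplasmic reticulum to the Golgi, at 63.3 ± 0.506 RPKM, RAB10, which acts in exocytosis, at 53.9 ± 0.535 and RAB1A at 50.6 ± 1.44. RAB14 (40.6 ± 0.219) and RAB2A (38.3 ± 1.91) followed, and their libraries overlapped, so their order does not hold beyond the spread. RAB8A, RAB34 and RAB35, between 25.3 and 26.4 RPKM, likewise could not be ordered. RAB42 ranked 13th of the 50 at 17.5 ± 1.48 RPKM, and was at 7.29 ± 1.0 with PT2385 and 4.75 ± 0.643 in KO cells. At the low end were RAB6B at 0.0728 ± 0.0794 RPKM and RAB7B at 0.0379 ± 0.0473, whose libraries overlapped each other.

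**Figure D1:**
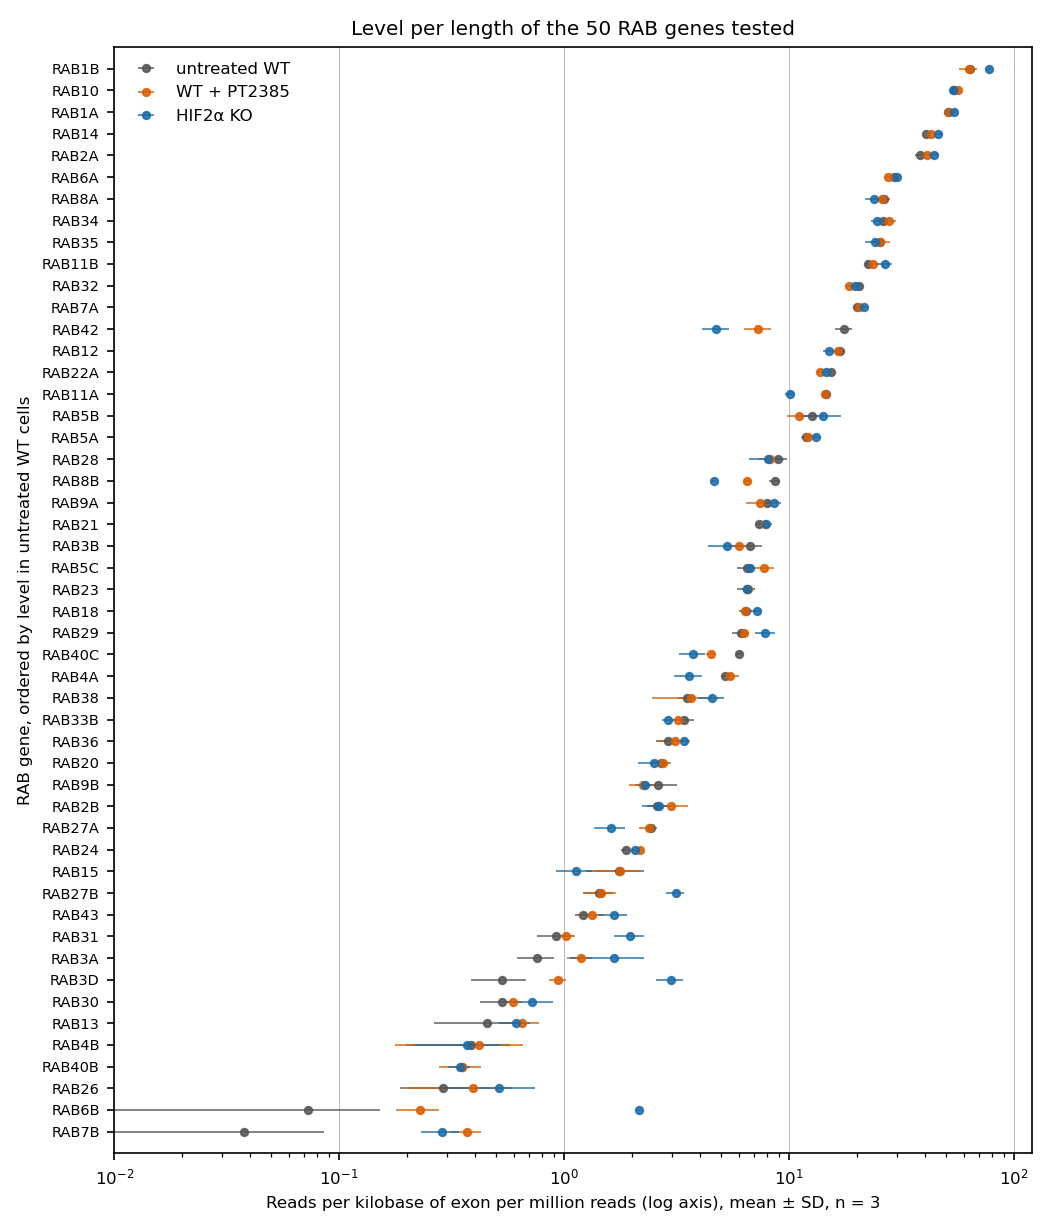
Level per length of the 50 tested RAB genes (mean ± SD, n = 3; logarithmic axis in RPKM), ordered by the level in untreated WT cells, with 1 colour per group; where the SD reached below 0 the bar runs to the axis edge. RAB1B is at the top at 63.3 RPKM and RAB7B at the bottom at 0.0379, and the 3 groups lie on top of each other for most genes. The 3 groups are apart for genes such as RAB42, RAB8B, RAB3D and RAB6B. Only the KO is apart for RAB27B and only the control for RAB7B.

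The 13 genes not tested had few reads. RAB17, an epithelial RAB of early endosomes, reached 10 reads, with 2, 1 and 1 in control libraries, 1 in each PT2385 library and 7, 3 and 10 in KO libraries, and it did not pass the filter in any comparison. RAB39B and RAB40A reached at most 4 reads. The other 10 genes (RAB19, RAB25, RAB33A, RAB37, RAB39A, RAB3C, RAB41, RAB44, RAB6C and RAB6D) did not exceed 3 reads in any library and were not detectable at this depth, and 3 of them (RAB37, RAB3C and RAB41) had none. Several tested genes share sequence or exons with a neighbour, so that their counts are uncertain: RAB4B shares every 50-base run with another gene, RAB43 90.7% of them (mostly with the read-through gene ISY1-RAB43), RAB24 57.1%, RAB13 56.9% and RAB5C 43.9%. RAB23 shares 57.8% of its exonic bases with BAG2 on the opposite strand.

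With PT2385 the share of RAB transcripts that passed was near that of all genes. Against control, 5 of the 50 tested RAB genes passed (10.0%; edgeR quasi-likelihood test, Benjamini-Hochberg adjusted p under 0.05), compared with 7.7% of all 15089 genes tested. RAB7B and RAB3D rose (4.0%, against 3.08% of all genes) and RAB42, RAB40C and RAB8B fell (6.0%, against 4.62%). In RNA from many cells, fewer cells with a transcript and less of it per cell cannot be told apart. The median log2 fold change of the RAB genes was 0.022, against 0.001 over all genes, and 37 of the 50 lay within 0.2 of 0. The libraries of both groups did not overlap for 14 of 50 RAB genes (28.0%), against 26.0% of all genes. Same-numbered control and PT2385 libraries deviated together, and in a model with the replicate number as a block 7 of 50 RAB genes passed (RAB6B and RAB22A in addition), against 15.3% of all genes.

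In HIF2α KO cells more RAB transcripts, and more genes of any kind, differed from control. Here 19 of 50 passed (38.0%), against 30.1% of all 15192 genes tested, 12 of them higher and 7 lower, with backgrounds of 14.7% and 15.4%. The groups did not overlap for 26 of 50 (52.0%), against 43.8% of all genes. The median log2 fold change was 0.087 over the RAB genes and 0.004 over all genes, and 7 of the 19 differed at least 2-fold, as did 1042 of the 4566 genes of any kind that passed. The number of RAB genes that passed dropped to 12 without KO replicate 2 and also without control replicate 1. All 5 genes that passed with PT2385 also passed in KO cells in the same direction, but both comparisons use the same control libraries and so are not independent. The matching share over all genes was not counted, so the overlap is not shown to be particular to RAB genes. With the replicate block, although the numbers were not taken as pairs in this comparison, 21 of 50 passed, against 36.2% of all genes.

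Between KO cells and PT2385-treated WT cells, which share no library, 11 of 50 RAB genes passed (22.0%), against 18.8% of all 15402 genes. RAB6B, RAB3D, RAB27B, RAB31 and RAB1B were higher in KO cells (10.0%, against 8.47% of all genes) and RAB42, RAB8B, RAB11A, RAB15, RAB4A and RAB27A lower (6 genes, against 10.3%). The groups did not overlap for 21 of 50 (42.0%), against 35.4% of all genes. Without KO replicate 1 the number dropped to 7, and with the replicate block it was 13, against 24.6% of all genes. Across the 3 comparisons 19 RAB genes passed at least once and 31 tested RAB genes never did, a tally that was not made over all genes.

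**Figure D2:**
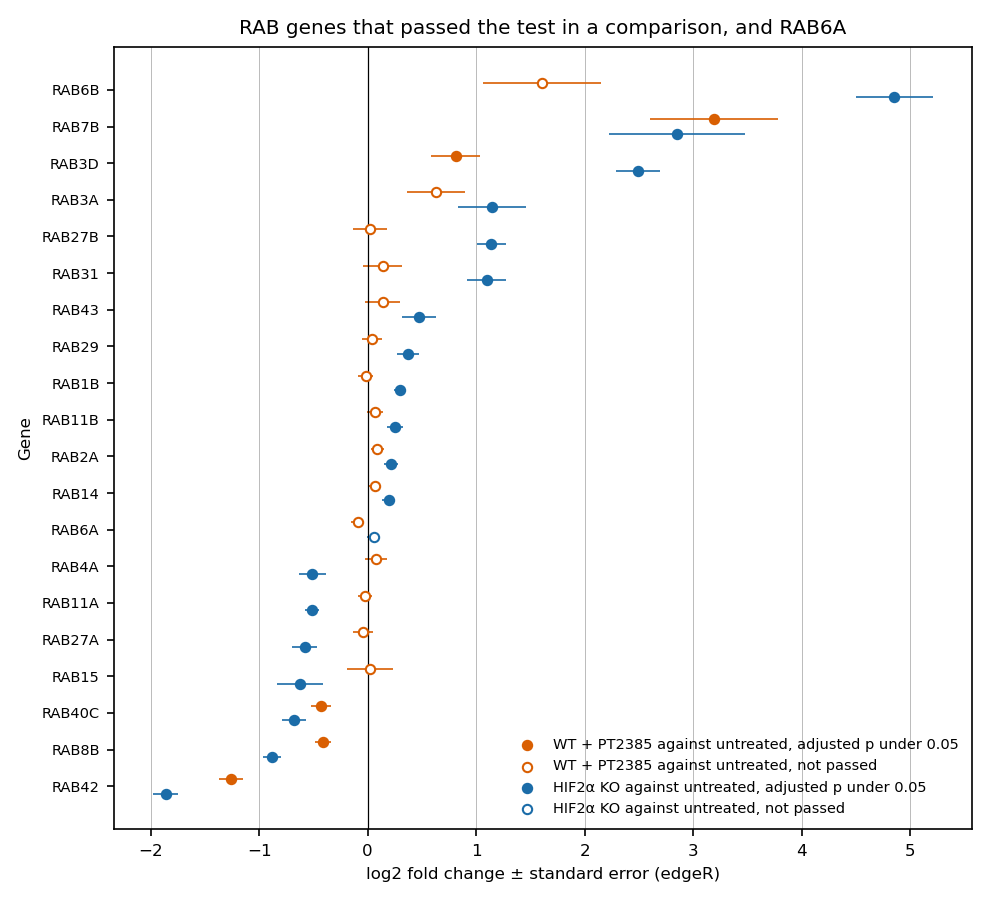
Log2 fold change against untreated WT cells (± SE, edgeR) of the 19 RAB genes that passed in any comparison and of RAB6A, for PT2385 and for the KO. Filled points passed at an adjusted p under 0.05 in the model without the replicate block. RAB6B reaches 4.86 in KO cells with an open point at 1.61 for PT2385, RAB42 is lowest in both (-1.26 and -1.86), and most KO changes from RAB43 down to RAB4A have a PT2385 point near 0.

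Of the RAB genes of the endoplasmic reticulum and Golgi, 4 of 12 tested rose in KO cells (RAB6B, RAB43, RAB1B and RAB2A) and none fell. This was 33.3%, where 14.7% of all genes rose and 15.4% fell. With PT2385 0 of 12 passed without the replicate block (edgeR), against 7.7% of all genes, and 1 had an unadjusted p under 0.05. With the block RAB6B passed (adjusted p = 0.0324), where 15.3% of all genes did. RAB6B is the paralog of RAB6A that is found mainly in brain. It had 3, 12 and 1 reads in control libraries, 20, 20 and 15 with PT2385 and 170, 183 and 192 in KO libraries. The KO libraries stood far above all others, and the 12 reads of control replicate 2 came close to the PT2385 libraries without reaching them. RAB6B passed the filter on low counts only through the groups in which it was high.

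In KO cells RAB6B rose by 4.86 on the log2 scale (SE 0.355, adjusted p = 2.24e-06), from 0.441 ± 0.481 to 13.0 ± 0.276 CPM (SD, n = 3). The ratio of summed reads scaled by library size was 29.3, with an exact 95% interval of 17.9 to 51.6 that covers counting error only, and the log2 fold change lay between 4.37 and 6.21 when single libraries were left out. With PT2385 the level was 1.38 ± 0.298 CPM, a ratio of 3.09 (1.75 to 5.78), and the log2 fold change of 1.61 (SE 0.545) did not pass the test (adjusted p = 0.106). It passed with the replicate number as a block (adjusted p = 0.0324), with no filter on low counts (0.00601) and without control replicate 2, where the log2 fold change was 2.97 (adjusted p = 0.0170). KO cells exceeded PT2385-treated cells by 3.23 (SE 0.185, adjusted p = 1.70e-06), a ratio of 9.47 (7.17 to 12.7). An exact permutation test of RAB6B alone gave p = 0.1 in each comparison, the smallest value that 3 against 3 libraries allow.

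RAB6A was the main RAB6 transcript throughout. Its libraries read 138, 140 and 151 CPM in control, 137, 135 and 132 with PT2385 and 147, 151 and 144 in KO cells, and it did not pass in any comparison (log2 fold changes -0.09, 0.06 and 0.13 in the order given above). As a share of RAB6A and RAB6B together, per length, RAB6B made up 0.252 ± 0.276% in control cells, 0.822 ± 0.162% with PT2385 and 6.66 ± 0.266% in KO cells (SD, n = 3). The RAB6B gene overlaps SRPRB, which lies on the opposite strand, over 381 bases (6.29% of its exonic bases), and the sources used here do not state whether reads were counted by strand. SRPRB was at 81.5 ± 6.33, 93.7 ± 5.40 and 103 ± 14.8 CPM in control, PT2385 and KO cells and rose by 0.35 in KO cells (adjusted p = 0.0187). Its part in the RAB6B counts was not tested.

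The other Golgi members moved less. RAB1B was at 124, 122 and 124 CPM in control libraries, 113, 118 and 135 with PT2385 and 148, 154 and 148 in KO libraries. Every KO library lay above every other one, and RAB1B rose by 0.30 in KO cells (SE 0.0562, adjusted p = 0.00217). RAB2A, also a regulator of early secretory traffic, rose by 0.21 (SE 0.0621, adjusted p = 0.0227), and RAB43 by 0.48 (SE 0.160, adjusted p = 0.0438), a call that DESeq2 did not make (adjusted p = 0.0927). When single libraries were left out, RAB2A lost its call without KO replicate 2 or control replicate 1 or 2 (adjusted p up to 0.117) and RAB43 without any library other than KO replicate 1 (up to 0.132). RAB1B passed against control in all 6 such fits, but lost its call against PT2385 without KO replicate 1 or 2 or PT2385 replicate 1 or 2 (up to 0.116). RAB1A, the close paralog of RAB1B, was at 168 ± 4.75, 171 ± 6.11 and 179 ± 3.92 CPM and did not pass.

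Of the genes of regulated secretion, 4 of 6 tested differed in KO cells, against 30.1% of all genes, with RAB3A, RAB3D and RAB27B higher and RAB27A lower. RAB3 and RAB27 proteins sit on secretory granules and prepare them for fusion with the plasma membrane. RAB3D had 25, 37 and 22 reads in control libraries, 46, 56 and 63 with PT2385 and 149, 216 and 184 in KO libraries. The 3 groups did not overlap. RAB3D rose by 2.50 in KO cells (SE 0.202, adjusted p = 4.80e-06), with a read ratio of 5.62 (exact 95% interval 4.46 to 7.15), and was higher in KO than in PT2385-treated cells by 1.66 (SE 0.159, adjusted p = 5.06e-05). With PT2385 it rose by 0.81 (SE 0.226, adjusted p = 0.0486), a call that was close to the threshold: DESeq2 did not make it (adjusted p = 0.0961) and it was lost in 4 of the 6 fits that left out 1 library, without PT2385 replicate 2 or 3 or control replicate 1 or 3. RAB3D shares 144 exonic bases with TMEM205 on the same strand, which rose by 0.65 in KO cells (adjusted p = 8.67e-04). The part of those bases in the RAB3D counts was not tested.

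RAB27A and RAB27B moved in opposite directions in KO cells. RAB27B was at 10.4, 11.8 and 8.61 CPM in control libraries, 11.1, 11.7 and 8.59 with PT2385 and 21.4, 24.8 and 21.1 in KO libraries. RAB27A was at 27.1, 26.7 and 29.0 CPM in control libraries, 26.9, 29.4 and 24.5 with PT2385 and 16.2, 17.0 and 21.6 in KO libraries. For both genes the KO libraries were apart from the other 6, and control and PT2385 libraries overlapped. RAB27B rose by 1.14 (SE 0.134, adjusted p = 8.39e-05) and RAB27A fell by 0.58 (SE 0.116, adjusted p = 0.00305) against control. The direct comparison of KO with PT2385-treated cells gave 1.10 for RAB27B (SE 0.138, adjusted p = 3.03e-04) and -0.56 for RAB27A (SE 0.127, adjusted p = 0.0108), the latter lost without KO replicate 1 (adjusted p = 0.0569) or PT2385 replicate 2 (0.0641). RAB27A shares 183 exonic bases with PIGBOS1 on the same strand, which had 409 reads over the 9 libraries. It also overlaps PIGB on the opposite strand over 154 exonic bases, and PIGB was at 10.8 ± 1.40 CPM in control and 8.03 ± 0.523 in KO cells. The part of both neighbours in the RAB27A counts was not tested. Per union of exons, RAB27A had the higher level in control cells (2.44 ± 0.106 against 1.43 ± 0.221 RPKM) and RAB27B in KO cells (1.61 ± 0.254 against 3.13 ± 0.289 RPKM). That order depends on the length used. The exon unions hold 11345 bases for RAB27A and 7154 for RAB27B, but the canonical GENCODE transcripts hold 3447 and 7003. Which of these genes is the more abundant in KO cells is therefore not settled.

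RAB3A, at 1.36 ± 0.253 CPM in control cells, rose to 2.98 ± 1.08 in KO cells (log2 fold change 1.15, SE 0.311, adjusted p = 0.0166), with KO replicate 2 at 4.23 and the others at 2.31 and 2.40. The call was lost without KO replicate 2 or control replicate 1 or 3 (adjusted p up to 0.0663). The RAB3A gene overlaps MPV17L2 on the opposite strand over 165 exonic bases (9.24%). RAB3B, the most abundant RAB3 transcript, was at 85.2 ± 11.3, 76.5 ± 10.7 and 67.7 ± 11.9 CPM and did not pass (-0.32 in KO cells, adjusted p = 0.0702). With the replicate block in edgeR it passed in KO cells (adjusted p = 0.00150). In each group its replicate 3 was the highest library, at 98.2, 88.3 and 81.4 CPM.

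**Figure D3:**
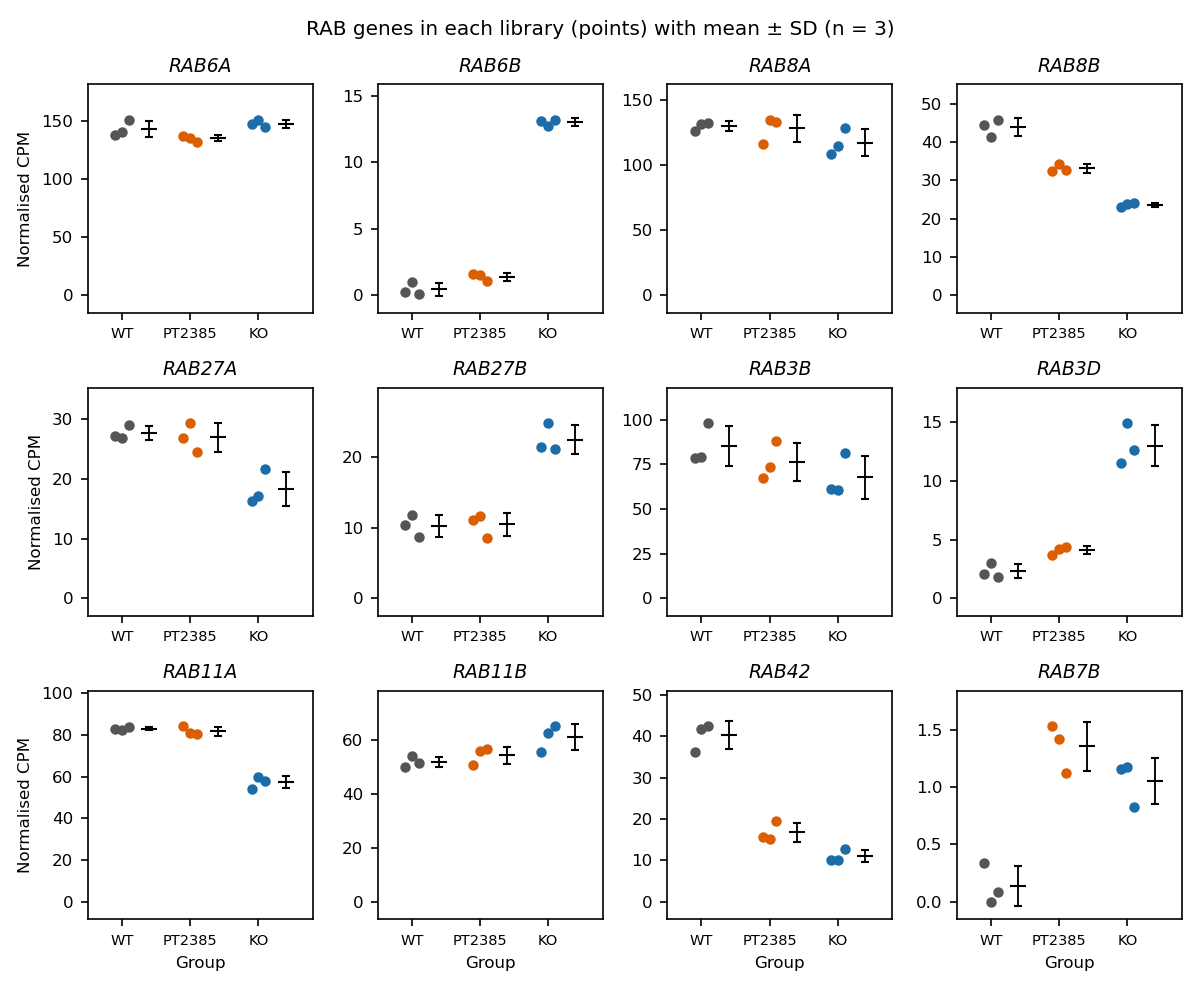
Normalised CPM of 12 RAB genes in every library (points, replicates 1 to 3 from left to right within a group) with the mean ± SD beside them (n = 3), each panel on its own linear axis. In RAB6B, RAB3D and RAB27B the KO libraries lie above all others, in RAB8B, RAB42, RAB27A and RAB11A below, and in RAB7B both PT2385 and KO libraries lie above the control libraries, while RAB6A and RAB8A overlap across groups.

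In the group of recycling and polarised delivery, 6 of 12 tested genes differed in KO cells, against 30.1% of all genes. RAB11B and RAB14 were higher (2 of 12, against 14.7%) and RAB8B, RAB11A, RAB4A and RAB15 lower (4 of 12, against 15.4%). With PT2385 1 of 12 (RAB8B) differed, which was 8.33% and near the 7.7% of all genes. RAB8 proteins carry cargo to the plasma membrane and to the cilium. RAB8B was at 44.6, 41.3 and 45.9 CPM in control libraries, 32.3, 34.4 and 32.7 with PT2385 and 23.1, 23.7 and 24.1 in KO libraries. The 3 groups did not overlap, with PT2385 libraries between the others. RAB8B fell by 0.41 with PT2385 (SE 0.0771, adjusted p = 0.00621) and by 0.88 in KO cells (SE 0.0798, adjusted p = 1.21e-05), and KO cells were lower than PT2385-treated cells (-0.49, SE 0.0854, adjusted p = 0.00233). Its paralog RAB8A was at 130 ± 3.63, 128 ± 10.1 and 117 ± 10.3 CPM and did not pass in any comparison.

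RAB11A and RAB4A direct endocytosed receptors back to the surface. RAB11A was at 82.8, 82.3 and 83.9 CPM in control libraries, 84.3, 80.8 and 80.3 with PT2385 and 54.2, 60.0 and 58.1 in KO libraries, so that only the KO libraries were apart. It fell by 0.52 in KO cells (SE 0.0650, adjusted p = 1.40e-04) and was lower there than with PT2385 (-0.51, SE 0.0717, adjusted p = 6.30e-04). Its paralog RAB11B rose by 0.25 in KO cells (SE 0.0772, adjusted p = 0.0292), from 51.9 ± 2.02 to 61.3 ± 4.98 CPM. RAB4A fell by 0.51 (SE 0.125, adjusted p = 0.00965), from 17.2 ± 0.594 to 11.9 ± 1.71 CPM. RAB15, which acts in endocytic recycling, fell by 0.62 (SE 0.216, adjusted p = 0.0490) and RAB14, which acts between Golgi and endosomes, rose by 0.19 (SE 0.0580, adjusted p = 0.0268). The call of RAB15 lay at the threshold and was lost when at least 10 counts were required in every library (adjusted p = 0.0509), and without KO replicate 1 or 2 or control replicate 1 or 3 (up to 0.219). RAB11B lost its call without any library other than KO replicate 1 (up to 0.0983) and RAB14 without KO replicate 2 or any control library (up to 0.109), whereas RAB11A and RAB4A passed in all 6 such fits.

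Among early endosome genes 1 of 8 tested differed in KO cells (12.5%, against 30.1% of all genes). With PT2385 0 of 8 passed without the replicate block (edgeR), against 7.7% of all genes, and 2 had an unadjusted p under 0.05. The gene that differed in KO cells, RAB31, acts between the trans-Golgi network and endosomes. It was at 4.69, 4.36 and 6.10 CPM in control libraries, 6.13, 5.53 and 5.10 with PT2385 and 10.9, 12.3 and 9.00 in KO libraries, where all 3 exceeded the other 6. It rose by 1.10 in KO cells (SE 0.178, adjusted p = 7.99e-04) and was higher there than with PT2385 (0.94, SE 0.163, adjusted p = 0.00221). RAB22A, its closest relative, was at 142 ± 3.76, 127 ± 4.42 and 135 ± 2.48 CPM, and its difference of -0.16 with PT2385 (adjusted p = 0.144) passed with the replicate block (adjusted p = 0.0464). RAB5A, RAB5B and RAB5C, the RAB proteins that define early endosomes, did not pass in any comparison with all libraries and without the block. RAB5B passed in 1 of the 6 fits that left out 1 library, in each comparison with KO cells.

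Of the genes of late endosomes, lysosomes and related organelles, RAB7B and RAB29 rose among 7 tested in KO cells (28.6%, against 14.7% of all genes). RAB7B rose with PT2385 (14.3%, against 3.08%). RAB7B acts in transport from late endosomes to the trans-Golgi network. It had 4, 0 and 1 reads in control libraries, 19, 19 and 16 with PT2385 and 15, 17 and 12 in KO libraries. All 6 PT2385 and KO libraries exceeded the control libraries, and PT2385 and KO libraries overlapped. RAB7B passed the filter only through the groups in which it was high. The read ratio to control was 9.71 with PT2385 (exact 95% interval 3.91 to 31.1, adjusted p = 0.00554) and 7.56 in KO cells (3.01 to 24.4, adjusted p = 0.00540), and KO and PT2385-treated cells differed by -0.36 (SE 0.300, adjusted p = 0.461). RAB29, which brings the kinase LRRK2 to membranes, was at 22.4, 23.0 and 26.2 CPM in control libraries and 32.6, 32.1 and 27.0 in KO libraries (0.37, SE 0.104, adjusted p = 0.0192), a call lost without KO or control replicate 1 or 2 (adjusted p up to 0.0880). RAB7A, the general late endosomal RAB, was at 145 ± 4.71, 147 ± 8.90 and 155 ± 6.50 CPM and did not pass.

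The remaining genes, of the cilium and of other roles, gave 2 that fell of 5 tested in KO cells and with PT2385 alike, RAB42 and RAB40C. This was 40.0%, where 15.4% of all genes fell in KO cells and 4.62% with PT2385. RAB42 is little studied. It was at 36.3, 41.8 and 42.5 CPM in control libraries, 15.7, 15.2 and 19.4 with PT2385 and 10.1, 10.1 and 12.6 in KO libraries. The 3 groups did not overlap. RAB42 fell by 1.26 with PT2385 (SE 0.110, adjusted p = 1.33e-05) and by 1.86 in KO cells (SE 0.115, adjusted p = 5.41e-07), to levels 2.40-fold and 3.63-fold under control. KO cells were lower than PT2385-treated cells (-0.62, SE 0.144, adjusted p = 0.0120), a call that was lost without KO replicate 1 (-0.57, adjusted p = 0.0585). Of its 50-base runs 6.72% occur elsewhere, mostly in the pseudogene RAB42P1.

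RAB40C carries a SOCS box through which it joins a ubiquitin ligase. It was at 24.1, 25.8 and 25.4 CPM in control libraries, 18.1, 19.6 and 18.4 with PT2385 and 16.2, 17.2 and 13.3 in KO libraries. Control libraries lay above all others. RAB40C fell by 0.43 with PT2385 (SE 0.0896, adjusted p = 0.0123), a call lost without control replicate 2 (adjusted p = 0.0743), and by 0.68 in KO cells (SE 0.113, adjusted p = 9.78e-04). Its paralog RAB40B was at 2.16 ± 0.147, 2.17 ± 0.461 and 2.11 ± 0.230 CPM and did not pass.

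The promoters were searched for the core of the element to which HIF proteins bind, ACGTG or GCGTG on either strand, within 250 bases before the start of each gene (RefSeq, GRCh38.p14). Such a core occurred in 43.2% of all 35116 windows and in 35 of 71 windows (49.3%) of the 50 RAB genes that have one. Where a gene has several windows, only the first listed is described next. The window of RAB6B (chr3:133895883-133896132, minus strand) held 1, that of RAB8B 3 and those of RAB42 and RAB3D none. The RAB42 window includes 65 annotated exonic bases and that of RAB8B 46. The windows of RAB6B and RAB3D, which rose in KO cells, are printed as a window with and a window without the core, 5′ to 3′ toward the start site, with the core in capitals. That of RAB3D lies at chr19:11339658-11339907 on the minus strand. It falls within the GENCODE span of the gene (chr19:11322068-11346270) and not before the outermost GENCODE start.
RAB6B: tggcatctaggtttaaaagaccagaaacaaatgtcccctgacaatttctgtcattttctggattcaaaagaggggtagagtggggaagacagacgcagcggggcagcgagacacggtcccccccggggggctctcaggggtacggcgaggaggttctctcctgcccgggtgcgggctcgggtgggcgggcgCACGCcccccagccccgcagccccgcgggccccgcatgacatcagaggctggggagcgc
RAB3D: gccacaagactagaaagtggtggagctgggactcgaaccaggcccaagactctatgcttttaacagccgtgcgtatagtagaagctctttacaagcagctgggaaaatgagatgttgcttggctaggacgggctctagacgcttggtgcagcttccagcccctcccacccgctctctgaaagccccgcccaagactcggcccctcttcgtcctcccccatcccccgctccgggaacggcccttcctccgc
A match describes the letters and does not show binding, and a window without one says nothing about the factor.

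Beside the RAB genes, 128 genes that act on RAB proteins were followed, as GEFs, GAPs, effectors, escort and GDI proteins and kinases. With PT2385, 12 of 114 tested passed (10.5%; 3 higher and 9 lower), and 23 with the replicate block. In KO cells 49 of 115 passed (42.6%; 29 higher and 20 lower), and between KO and PT2385-treated cells 29 of 113 (25.7%). Without PT2385 replicate 2 or control replicate 2 the first count was 6, and without KO replicate 1 the last was 19. The background of all genes is that given above, 7.7%, 30.1% and 18.8%, and 15.3% for PT2385 with the replicate block. With PT2385 2.63% were higher and 7.89% lower, against 3.08% and 4.62% of all genes. In KO cells 25.2% were higher and 17.4% lower, against 14.7% and 15.4% of all genes.

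SYTL3, BICD1, CHML and DENND2A fell both with PT2385 and in KO cells, and TBC1D16 rose in both. SYTL3, an effector of RAB27, was at 118, 108 and 127 CPM in control libraries, 43.9, 41.3 and 40.4 with PT2385 and 23.4, 21.1 and 29.4 in KO libraries. It fell by 1.49 (SE 0.0768, adjusted p = 1.14e-07) and 2.24 (SE 0.112, adjusted p = 1.04e-07), with no overlap between groups. BICD1, an adaptor that links RAB6 to dynein, was at 104 ± 5.17, 59.0 ± 7.94 and 41.7 ± 1.64 CPM and fell by 0.82 (SE 0.0905, adjusted p = 1.00e-04) and 1.30 (SE 0.0685, adjusted p = 1.47e-07). CHML, an escort protein for prenylation also called REP2, was at 135 ± 3.91, 72.1 ± 11.6 and 46.4 ± 2.68 CPM and fell by 0.91 (SE 0.0984, adjusted p = 9.07e-05) and 1.52 (SE 0.0669, adjusted p = 4.06e-08). CHML lies within OPN3 on the same strand and shares 488 exonic bases with it, and OPN3 also fell, by 0.89 and 1.80. The other escort protein, CHM, was at 46.8 ± 2.06, 39.0 ± 7.75 and 48.2 ± 0.625 CPM and did not pass. With PT2385 it differed by -0.27 (adjusted p = 0.229), and it passed there with the replicate block (0.0469).

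Among the GEFs 12 of 29 differed in KO cells (41.4%, against 30.1% of all genes). Of these 6 went in each direction (20.7%, against 14.7% higher and 15.4% lower). DENND2A, a GEF for RAB9, had 58, 43 and 49 reads in control libraries, 10, 18 and 9 with PT2385 and 1, 3 and 1 in KO libraries. Summed reads were 4.51-fold (exact 95% interval 3.13 to 6.65) lower with PT2385 (adjusted p = 4.91e-04) and 34.9-fold (14.6 to 109) lower in KO cells (adjusted p = 3.80e-06), where every library was at 3 reads or fewer. DENND2A passed the filter on low counts only through the control libraries, in which it was high. RIN1, a GEF for RAB5, rose by 1.21 in KO cells (SE 0.139, adjusted p = 7.25e-05) and DENND2D by 0.81 (SE 0.191, adjusted p = 0.00811). With PT2385 RIN1 differed by 0.49 and did not pass (adjusted p = 0.0802), but it passed with the replicate block (0.00390), with no filter on low counts (0.00243) and without PT2385 replicate 1 (0.0226). DENND3 and DENND4C, GEFs for RAB12 and RAB10, fell with PT2385 by 0.38 and 0.41 (adjusted p = 0.00360 and 0.0249) and did not pass in KO cells (0.06 and -0.12). DENND2B rose with PT2385 by 0.42 (adjusted p = 0.0395), and DENND2C rose in KO cells by 0.69 (adjusted p = 0.0303). Leaving out 1 library ended the calls of DENND4C (without PT2385 replicate 2 or control replicate 1 or 2, up to 0.111), DENND2B (without PT2385 replicate 1 or 2 or control replicate 2 or 3, up to 0.173) and DENND2C (without any library other than KO replicate 1, up to 0.0993).

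Of the GAPs 16 of 33 differed in KO cells (48.5%, against 30.1% of all genes). Of these 12 were higher (36.4%, against 14.7%) and 4 lower (12.1%, against 15.4%). With PT2385 1 of 32 differed (3.12%, against 7.7%), where TBC1D16 rose. TBC1D2, a GAP for RAB7, was at 92.7 ± 12.9, 88.9 ± 12.3 and 182 ± 9.61 CPM and rose by 0.99 in KO cells (SE 0.0921, adjusted p = 1.51e-05). RAB3GAP2, a subunit of the GAP for RAB3, was at 93.5 ± 3.12, 88.3 ± 10.8 and 169 ± 7.08 CPM and rose by 0.87 (SE 0.0612, adjusted p = 1.72e-06), whereas its partner subunit RAB3GAP1 did not pass (0.16, adjusted p = 0.0884). EVI5L rose by 0.79 (SE 0.219, adjusted p = 0.0187), a call lost without KO replicate 1 or control replicate 2 or 3 (adjusted p up to 0.0896). TBC1D16 lost both its calls without control replicate 1 or 2, its PT2385 call without PT2385 replicate 2 (up to 0.108) and its KO call without KO replicate 2 (up to 0.151).

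Further effectors are ordered by their partner. BICDL1, a further dynein adaptor for RAB6, rose by 1.44 in KO cells (SE 0.165, adjusted p = 7.00e-05), from 8.35 ± 1.91 to 22.4 ± 2.62 CPM. With PT2385 it differed by 0.43 and did not pass (adjusted p = 0.280), but it passed with the replicate block (0.0307) and without PT2385 replicate 3 (0.0367). WDR91, an effector of RAB7, fell by 0.77 (SE 0.0825, adjusted p = 4.38e-05) in KO cells. SYTL2, a RAB27 effector, was at 14.6, 16.3 and 19.8 CPM in control libraries, 7.98, 10.0 and 7.20 with PT2385 and 14.3, 18.1 and 19.0 in KO libraries. It fell by 1.01 with PT2385 (SE 0.154, adjusted p = 0.00135), differed by 0.04 in KO cells (adjusted p = 0.862), and was higher in KO than in PT2385-treated cells by 1.03 (SE 0.160, adjusted p = 0.00113). EXPH5, another RAB27 effector, fell with PT2385 by 0.32 (adjusted p = 0.0294) and MICALL2, an effector of RAB8 and RAB13, rose by 0.52 (adjusted p = 0.0435), while neither passed in KO cells. For MICALL2 the KO value was 0.43 (adjusted p = 0.0517), close to the threshold, and it passed with DESeq2 (0.0421), with no filter on low counts (0.00667) and without KO replicate 1 (0.0387) or control replicate 3 (0.0236). OPTN, which binds RAB8 and is an autophagy receptor, fell with PT2385 by 0.29 (SE 0.0612, adjusted p = 0.0121) and rose in KO cells by 0.42 (SE 0.0606, adjusted p = 3.89e-04). Its call with PT2385 was lost without PT2385 replicate 2 or control replicate 2 or 3 (adjusted p up to 0.0764), as were those of EXPH5 (also without PT2385 replicate 1, up to 0.141) and of MICALL2 (without PT2385 replicate 2 or 3 or control replicate 1 or 2, up to 0.188). All 3 genes listed as kinases or phosphatase of RAB proteins differed in KO cells, against 30.1% of all genes, and none with PT2385, against 7.7%. In KO cells LRRK2 differed by 0.44 (adjusted p = 0.0475), LRRK1 by -0.25 (adjusted p = 0.0318) and PPM1H by -0.58 (adjusted p = 4.20e-04). LRRK2 lost its call without KO replicate 1 or 2 or control replicate 2 or 3 (adjusted p up to 0.169) and LRRK1 without KO replicate 1 or 3 or control replicate 1 or 2 (up to 0.132).

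**Figure D4:**
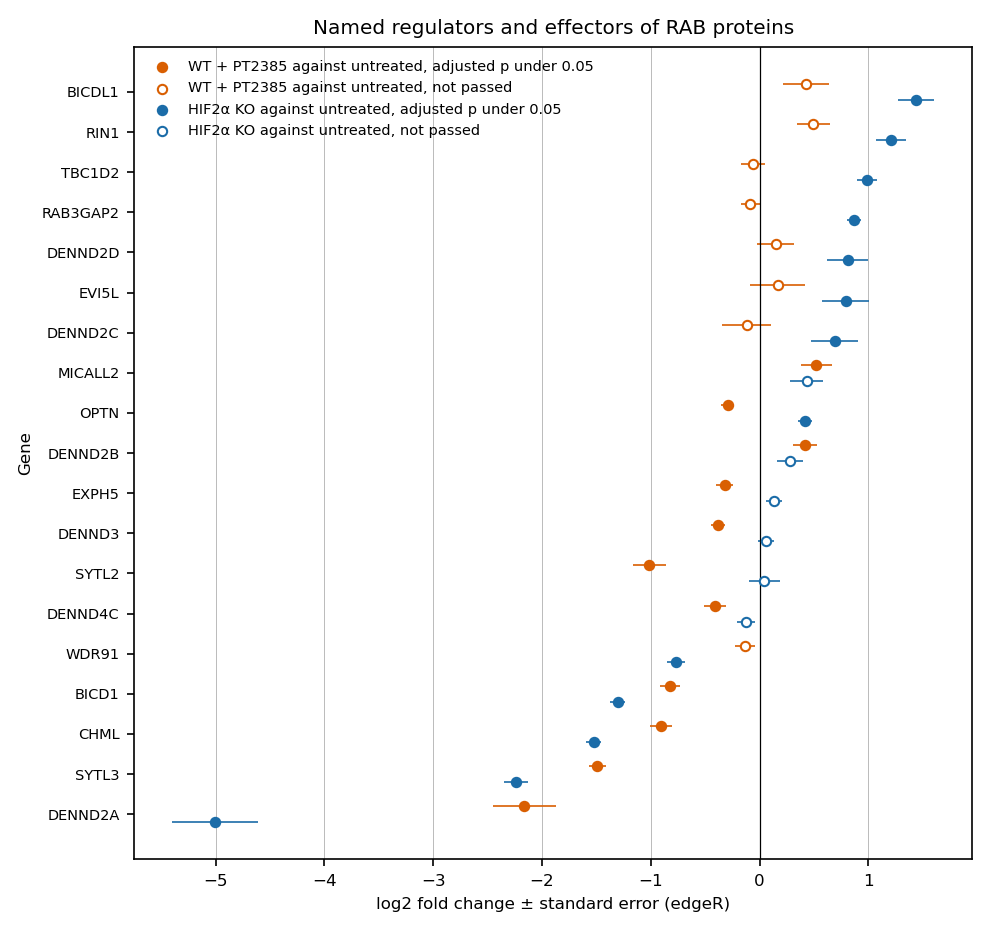
Log2 fold change against untreated WT cells (± SE, edgeR) of the regulators and effectors named by the rule for named genes, for PT2385 and for the KO. Filled points passed at an adjusted p under 0.05 in the model without the replicate block. DENND2A, SYTL3, CHML and BICD1 are lower in both, BICDL1, RIN1, TBC1D2 and RAB3GAP2 are higher in KO cells with open points for PT2385, and OPTN has filled points on both sides of 0.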

How the data were processed

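The authors trimmed reads with cutadapt, aligned them to GRCh38 (hg38) with STAR and counted reads per gene with featureCounts, and deposited raw counts per gene for the 9 libraries. Tool versions, the annotation release, strand setting and treatment of reads that map to several genes are not given in the sources used here. Gene identifiers were paired with GENCODE 44, which supplied symbols, lengths and exons (58207 of 58735 matched). The RAB genes, the 128 genes acting on them and the markers were chosen with earlier results of these data known. Per comparison, counts were filtered (filterByExpr, minimum count 10), scaled by TMM and tested with the edgeR 4.0.16 quasi-likelihood test in R 4.3.3, each pair of groups in its own model, with Benjamini-Hochberg adjustment over all genes tested and a threshold of 0.05. The authors named DESeq2 as their tool, which was run as an alternative (version 1.42.0). CPM and RPKM were computed from the counts, with the union of exons as length. Read ratios have exact Clopper-Pearson 95% intervals.

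Same-numbered libraries were checked for shared deviations from their group means over 11487 genes. The correlations were 0.413, 0.106 and 0.394 for PT2385 against control, all above 0.1, so the numbers were taken as pairs in that comparison. The main counts, p-values and figure points nevertheless come from models without the block. The blocked values stand beside the results of named genes that they change. For KO against control they were 0.288 and 0.428 in replicates 1 and 3, and for KO against PT2385 0.316 and 0.381. Replicate 2 reached only 0.0376 and 0.0673 there, under 0.1. The numbers were therefore not taken as pairs against the KO, although replicates 1 and 3 deviated together. All replicates differed by more than counting noise. Named genes were RAB6A to RAB6D, up to 15 RAB genes and up to 10 of the 128 others per comparison with the largest absolute log2 fold change among those that passed, and EPAS1. Their paralogs and relatives, RAB1B, RAB2A, RAB11B, RAB14, RAB17, TBC1D16, the kinases and phosphatase and the overlapping genes were named after their values were seen. Alternatives were other scalings (RLE, library size), DESeq2, no filter or at least 10 counts in every library, the block, all 9 libraries in one model, and leaving out each library.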

Additional observations from a re-analysis of the deposited data

Results flagged for a closer look

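OPTN, an adaptor that binds RAB8, is given here because it fell with PT2385 and rose in KO cells, and the direct comparison of both groups passed. It was at 113, 114 and 118 CPM in control libraries, 97.9, 92.7 and 92.0 with PT2385 and 159, 144 and 153 in KO libraries, and KO exceeded PT2385-treated cells by 0.69 on the log2 scale (SE 0.0697, adjusted p = 7.57e-05, edgeR), with all 3 KO libraries above all 3 PT2385 libraries.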

How the results depend on the processing

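No count and no call of a named gene reversed its direction under any alternative tried. Some log2 fold changes near 0 that did not pass changed sign, such as that of DENND3 in KO cells, 0.06, which was -0.01 without KO replicate 3. The numbers of RAB genes that passed, 5, 19 and 11, were 4, 19 and 12 with DESeq2 and 7, 21 and 13 with the replicate block. With the block, 23 instead of 12 of the genes acting on RAB proteins passed for PT2385, and 2305 instead of 1162 of all genes. The block also changed calls in comparisons with the KO, where the numbers were not taken as pairs. With it RAB3B (adjusted p = 0.00150), MICALL2 (0.00514) and DENND2B (0.04999) passed against control. RAB5B (0.0252) and CHM (0.0438) passed between KO and PT2385-treated cells. Leaving out 1 library gave 4 to 5, 12 to 21 and 7 to 13 RAB genes and 6 to 18, 33 to 50 and 19 to 32 of the others, for PT2385 against control, KO against control and KO against PT2385 in that order. The lowest counts came without PT2385 replicate 2 or control replicate 2 (6), without KO replicate 2 or control replicate 1 (12) and without KO replicate 1 (7 and 19). DENND2C lost its calls in KO cells with DESeq2 (adjusted p = 0.0763 against control and 0.0537 against PT2385), RAB15 its call against PT2385 with at least 10 counts in every library (adjusted p = 0.0502), and MICALL2 lost its PT2385 call when all 9 libraries shared a model (adjusted p = 0.0601). Other scalings changed no call of a named gene and shifted the median log2 fold change of all genes to at most 0.022. Genes with few reads, such as RAB6B and RAB7B in control cells, have wide intervals at this depth, and 3 libraries per group limit every test. The causes of these changes were not tested.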
